A study of Mus musculus with 13 samples.

Results

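The genes described here encode bone morphogenetic protein (BMP) ligands, their receptor and antagonists, the tolloid proteases and 2 BMP target genes, read in chemically induced skin tumours of mice with and without the histone methyltransferase G9a. The 10 genes (Bmp2, Bmp4, Bmp7, Bmpr1a, Grem1, Nog, Bmp1, Tll1, Id1 and Id3) were fixed by name. All 14 probe sets whose single gene symbol in the platform annotation is one of them were taken, out of 45037 probe sets and 17097 genes. Bmp1 and Bmp7 had 3 probe sets each, numbered here in the order of their identifiers, and the other 8 genes had 1.

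Total RNA of squamous tumours raised with DMBA, a carcinogen, and TPA, a tumour promoter, was hybridised to 13 arrays: 7 of G9a cKO (conditional knockout) mice, replicates 1, 2, 3, 5, 6, 8 and 9, and 6 of G9a WT mice, replicates 2, 4, 6, 7, 8 and 9. Mice of both genotypes were 8 weeks old at the first application to the shaved back skin. DMBA (0.25 mg per ml) and TPA (0.02 mg per ml) in acetone, 200 µl, were given weekly for 6 weeks, and TPA went on for up to 20 weeks. The sources used here give neither the driver of the deletion nor the strain, nor whether each tumour came from a mouse of its own, so p-values measure the spread between these tumours. The keratinocyte keratins Krt5 and Krt14 read 12.72 to 12.78 and 12.11 to 12.34 in cKO tumours and 12.55 to 12.67 and 12.27 to 12.45 in WT tumours, on the log2 scale of all values given here.

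BMPs are secreted ligands of the TGF-beta superfamily. They bind pairs of type I and type II receptor kinases, which phosphorylate Smad1, Smad5 and Smad9, and these enter the nucleus with Smad4 and switch on genes such as the Id genes. Antagonists such as noggin and gremlin bind the ligands outside the cell. The tolloid proteases release ligands from another antagonist, chordin, by cleaving it, and also trim procollagens and other matrix precursors; Bmp1, despite its name, is such a protease and not a ligand. In skin, BMP signalling holds hair follicle stem cells at rest and takes part in keratinocyte differentiation.

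The upstream sequences of Tll1 and Grem1 are shown because these genes had the largest differences between the genotypes, in opposite directions. Both are the 250 bases before the annotated start (RefSeq, GRCm38.p6), 5′ to 3′ on the gene's minus strand, at chr8:64206009-64206258 and chr2:113758649-113758898. Capitals mark CG dinucleotides, the sites of DNA methylation.
Tll1: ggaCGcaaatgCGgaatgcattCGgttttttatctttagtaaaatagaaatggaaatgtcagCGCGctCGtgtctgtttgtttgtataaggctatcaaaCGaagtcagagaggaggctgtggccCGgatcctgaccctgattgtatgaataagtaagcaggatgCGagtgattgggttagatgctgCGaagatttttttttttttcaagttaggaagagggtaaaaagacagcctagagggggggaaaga
Grem1: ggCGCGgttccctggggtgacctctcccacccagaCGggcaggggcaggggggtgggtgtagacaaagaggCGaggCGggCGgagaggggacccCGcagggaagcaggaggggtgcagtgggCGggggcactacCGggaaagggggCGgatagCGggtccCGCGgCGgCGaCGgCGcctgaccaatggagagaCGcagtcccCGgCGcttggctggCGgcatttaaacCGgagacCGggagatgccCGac
The Tll1 stretch had 10 CG dinucleotides and a GC content of 43.2%, and the Grem1 stretch had 24 and 72%. The median over 27025 promoters was 6, and 61.8% and 88.3% of them had fewer than Tll1 and Grem1. The letters TGANTCA, to which the TPA-responsive factor AP-1 can bind, were in neither stretch and in 6.87% of all promoters. The letters GGCGCC, a GC-rich element bound by BMP Smads, were once in Grem1, 78 bases before the start, and in 9.54% of all promoters. Both motifs read alike on both strands and do not overlap each other. Promoters of 5 of the 10 genes were in the table.

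Of the targeted gene's 2 probe sets, Ehmt2 probe set 2 read 5.87 to 6.12 in cKO tumours and 8.03 to 8.61 in WT tumours, a log2 difference of -2.33 (limma adjusted p = 1.3e-09). Probe set 1 differed by 0.13 (adjusted p = 0.163). Where either lies relative to the deleted part is not known here, and a probe set outside it checks nothing. Array medians lay between 5.09 and 5.14. Consecutive columns of the deposited table were mirror images around their group mean in 6 pairs (cKO replicates 2 and 3, 5 and 6, 8 and 9; WT replicates 2 and 4, 6 and 7, 8 and 9), with correlations of their deviations over all probe sets of -0.953 to -0.881. A fit with a term for each such pair is therefore given beside the group fit. Nonspecific control probe sets differed between genotypes by -0.307 to 0.082 and hybridisation controls by 0.0573 to 0.493, so differences of this size between genes are not set apart from those of controls. All 18 hybridisation controls were higher on cKO arrays. The actin control's 3′ minus 5′ value was -0.359 to -0.285 on cKO and -0.229 to -0.1 on WT arrays, without overlap. That of Gapdh was 0.0728 to 0.111 and 0.081 to 0.125. The part of RNA quality or amplification in the differences was not tested. A probe set was taken as at background on an array where its value was under the nonspecific controls' upper quartile there, 4.17 to 4.32 on cKO and 4.29 to 4.44 on WT arrays.

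Of the 14 probe sets, 3 (21.4%) passed an adjusted p of 0.05 (limma, Benjamini-Hochberg over all probe sets), against a background of 47.9% of all probe sets: Tll1 and Bmp1 probe set 1 were lower in cKO tumours, and Id1 was higher. In single directions the background was 24.4% higher and 23.4% lower. With the neighbouring-pair term Tll1 alone passed, against 27.0% of all probe sets. The median log2 difference of the 14 probe sets was 0.03, and that of all probe sets was 0.000373. The median size of a difference, regardless of sign, was 0.177 against 0.149. The share of calls among these probe sets was thus below that of the arrays as a whole.

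**Figure D1:**
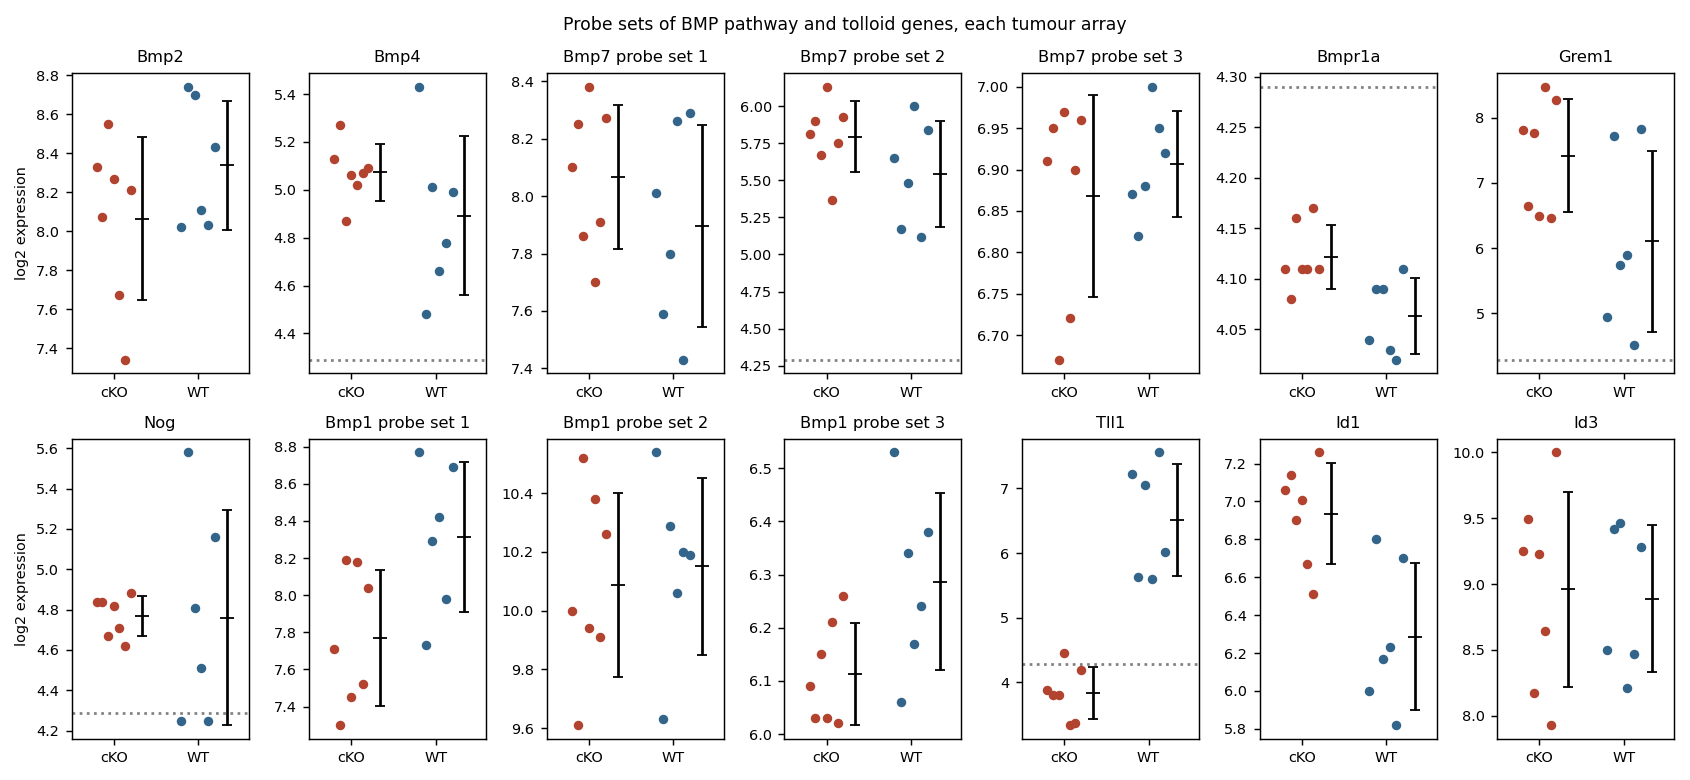
Log2 expression (y axis, its own range in each panel) of the 14 probe sets on each of 7 cKO arrays (red, left) and 6 WT arrays (blue, right); bars show mean and SD, and dotted lines the median over arrays of the upper quartile of the nonspecific controls, drawn where values come near it. Tll1 is the panel in which the groups do not overlap, and Grem1 and Nog spread more widely in WT than in cKO tumours.

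The protease gene Tll1 (tolloid-like 1) had the largest difference. It read 3.34, 3.81 and 4.46 (lowest, median, highest) in cKO tumours, against 5.60, 6.54 and 7.56 in WT tumours. Every cKO value lay below every WT value, as was so for 24.2% of all probe sets in either direction and for 10.9% with cKO lower. The log2 difference was -2.68 (95% interval -3.41 to -1.94), with means of 3.84 ± 0.40 in cKO (SD, n = 7) and 6.52 ± 0.87 in WT tumours (SD, n = 6) and a limma adjusted p of 4.97e-05. With the pair term the adjusted p was 0.00479. On 6 of 7 cKO arrays Tll1 lay below background, the exception being replicate 5 at 4.46, and on 0 of 6 WT arrays. With each cKO array set to at least its background level, expression was at least 4.75-fold lower in cKO tumours, against 6.4-fold as measured. Within the WT tumours Tll1 was 7.06 to 7.56 in replicates 2, 6 and 8 and 5.60 to 6.02 in replicates 4, 7 and 9. Each mirrored WT pair held 1 of either kind, as the mirroring itself would give. In bulk tissue, fewer cells of a type and less RNA per cell cannot be told apart.

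The other tolloid gene, Bmp1, which encodes procollagen C-proteinase, had a lower mean in cKO tumours on all 3 probe sets, of which 1 passed. Whether the probe sets differ from each other was not tested. Probe set 1 read 7.30, 7.71 and 8.19 in cKO tumours, against 7.73, 8.35 and 8.77 in WT tumours. The ranges overlapped: 4 of 7 cKO values lay below all WT values and 4 of 6 WT values above all cKO values. The log2 difference was -0.54 (95% interval -0.97 to -0.11, limma adjusted p = 0.0396). This call was lost with the pair term (adjusted p = 0.151), after quantile normalization (-0.39, adjusted p = 0.124) and without any one of 8 arrays (WT replicates 2, 6, 7 and 9, cKO replicates 1, 2, 5 and 8; adjusted p 0.0611 to 0.0873).

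Bmp1 probe set 2 averaged 10.09 ± 0.32 in cKO tumours and 10.15 ± 0.30 in WT tumours (SD, n = 7 and 6), a difference of -0.06 with a 95% interval of -0.41 to 0.29 (limma adjusted p = 0.774). After quantile normalization its sign turned (0.09). Probe set 3 averaged 6.11 ± 0.09 and 6.29 ± 0.17 and differed by -0.17 (limma adjusted p = 0.0599); it passed without WT replicate 4 or 7 or without cKO replicate 9 (-0.22, -0.20 and -0.20, adjusted p = 0.0151, 0.0492 and 0.0418). The 3 probe sets ordered the tumours differently but shared some features. The 4 highest of the cKO group were replicates 1, 3, 6 and 9 each time. Among WT tumours replicate 2 was highest and replicate 4, its mirrored partner, lowest each time. Replicates 3, 6 and 9 of the cKO group also come from different mirrored pairs, so the mirroring fixes part of these orders. The difference between genotypes was called for 1 of 3.

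The genes whose profile over the 13 arrays was closest to that of Tll1, by the root mean square difference after centring each on its own mean, were Cpeb2 (0.62), Inhba (0.634) and Zfp947 (0.66). Cpeb2, which encodes a regulator of translation, averaged 6.64 in cKO tumours and 8.53 in WT tumours. Inhba, which encodes the activin A subunit, averaged 7.63 and 10.26 in the same order, and the zinc finger gene Zfp947 averaged 4.31 and 6.01. Their own log2 differences between genotypes ran from -2.62 to -1.71. A large fall in cKO tumours was given in advance by choosing them for their likeness to Tll1, and is no separate result. Zfp947 lay below background on 3 of 7 cKO arrays.

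None of the ligand genes Bmp2, Bmp4 and Bmp7 passed the test. Bmp2, a ligand of epidermis and hair follicle, read 7.34, 8.21 and 8.55 in cKO tumours, against 8.02, 8.27 and 8.74 in WT tumours. cKO replicates 6 and 8, at 7.67 and 7.34, lay below all WT tumours, and the other 5 cKO tumours lay within the WT range. The log2 difference was -0.28 (95% interval -0.70 to 0.15, limma adjusted p = 0.268). Bmp4, which is made in dermis and other mesenchyme, read 4.87, 5.07 and 5.27 in cKO tumours, against 4.48, 4.89 and 5.43 in WT tumours. All cKO values lay within the WT range, and the difference was 0.18 (95% interval -0.09 to 0.45, limma adjusted p = 0.249). Without WT replicate 2, the highest Bmp4 value, the difference was 0.29 and passed (adjusted p = 0.0246).

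Bmp7, the remaining ligand gene, was read by 3 probe sets that all missed the threshold. Probe set 1 read 7.70, 8.10 and 8.38 in cKO tumours, against 7.43, 7.91 and 8.29 in WT tumours, a difference of 0.17 (95% interval -0.17 to 0.51, limma adjusted p = 0.395). Probe set 2 differed by 0.25 (95% interval -0.09 to 0.59) and probe set 3 by -0.04 (95% interval -0.16 to 0.08), with limma adjusted p of 0.2 and 0.564. The intervals of all 3 leave out a change as large as 2-fold in either direction. Probe sets 1 and 2 gave the cKO tumours one identical order, from replicate 5 as the highest to replicate 6 as the lowest. Among WT tumours both put replicates 7 and 9 highest and replicate 8 lowest.

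The receptor gene Bmpr1a, which encodes a type I receptor also called ALK3, was read by 1 probe set near background. It read 4.08, 4.11 and 4.17 in cKO tumours and 4.02, 4.06 and 4.11 in WT tumours, below background on 6 of 7 cKO arrays and on 6 of 6 WT arrays. No fold change is given for it. Its difference of 0.06 passed the test without WT replicate 9 (0.07, limma adjusted p = 0.0464), and whether the receptor's mRNA is present cannot be read from this probe set.

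**Figure D2:**
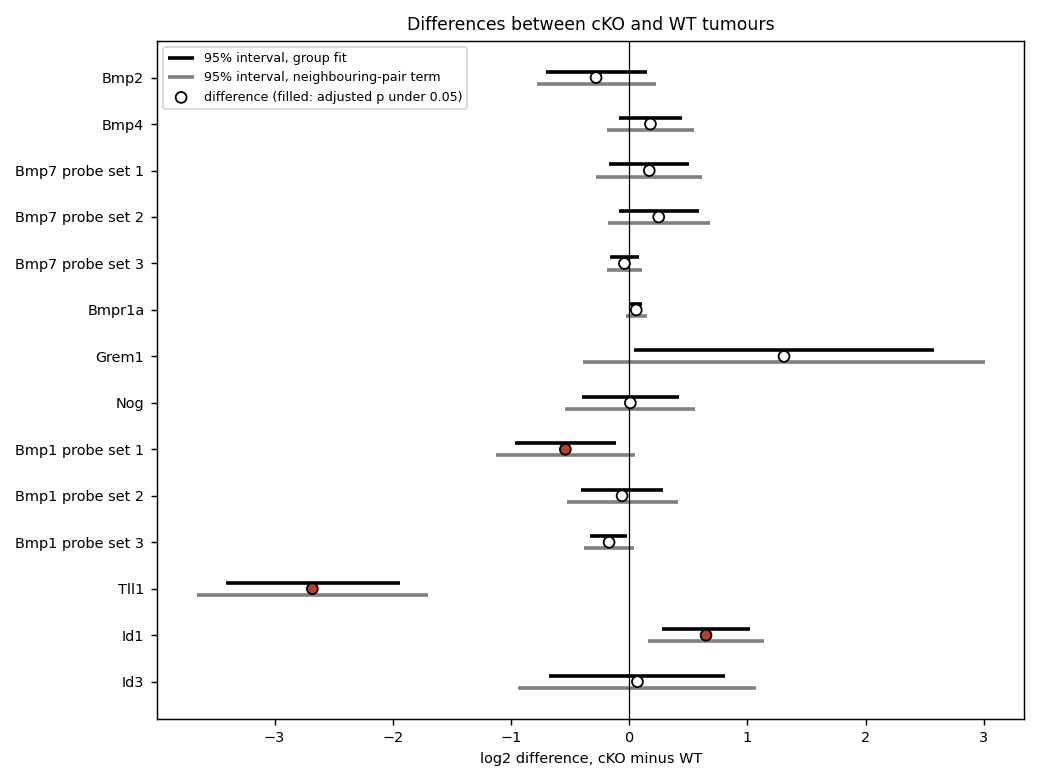
Log2 difference, cKO minus WT (x axis), of each probe set (rows), with 95% intervals from the group fit (black) and from the fit with neighbouring-pair terms (grey); filled points passed an adjusted p of 0.05 in the group fit. The interval of Tll1 lies between -3.41 and -1.94, and that of Grem1 is the widest, 0.04 to 2.58.

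The antagonist gene Grem1, which encodes gremlin 1, a binder of BMP2, BMP4 and BMP7 made by stromal cells in several tissues, had a log2 difference of 1.31 that missed the threshold. It read 6.46, 7.76 and 8.47 in cKO tumours, against 4.51, 5.82 and 7.82 in WT tumours. Among WT tumours, replicates 4 and 9 stood at 7.72 and 7.82, within the cKO range, and the other 4 at 4.51 to 5.90, below every cKO tumour. The 95% interval was 0.04 to 2.58 and the limma adjusted p was 0.0821, or 0.22 with the pair term. Leaving out WT replicate 4 gave 1.63 (limma adjusted p = 0.0332), and leaving out WT replicate 9 gave 1.65 (limma adjusted p = 0.029). Without any single one of the other 11 arrays it stayed uncalled, with limma adjusted p up to 0.175. The lowest difference was 0.99, without WT replicate 8.

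Noggin, encoded by Nog, had near-equal means and unequal spread. It read 4.62, 4.82 and 4.88 in cKO tumours, against 4.25, 4.66 and 5.58 in WT tumours, with SDs of 0.10 and 0.53. The log2 difference was 0.01 (95% interval -0.40 to 0.42, limma adjusted p = 0.972). WT replicates 4 and 9 were the 2 highest of all tumours, at 5.58 and 5.16, and WT replicates 2 and 8 the lowest, both at 4.25 and below background. Across these genes a wider spread in WT tumours was common: 10 of 14 probe sets had the larger SD there, as had 68% of all probe sets.

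Among the target genes Id1 rose in cKO tumours, and Id3 did not pass. The Id proteins bind basic helix-loop-helix factors and block their binding to DNA. Id1 read 6.51, 7.01 and 7.26 in cKO tumours, against 5.82, 6.20 and 6.80 in WT tumours. Of 7 cKO tumours, 5 lay above all WT tumours, and WT replicates 4 and 9 (6.80 and 6.70) reached into the cKO range. The log2 difference was 0.65 (95% interval 0.28 to 1.02), or 1.57-fold, with a limma adjusted p of 0.0071. With the pair term the call was lost narrowly (adjusted p = 0.0542), and with quantile normalization and the pair term together it was kept (0.71, adjusted p = 0.0361). WT replicates 4 and 9 were thus the 2 highest WT tumours for Grem1, Nog and Id1 alike. Their mirrored partners, replicates 2 and 8, were the 2 lowest, which follows from the mirroring and is no separate result.

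Id3 read 7.93, 9.23 and 10.00 in cKO tumours, against 8.21, 8.89 and 9.46 in WT tumours. The cKO values reached past the WT range at both ends, and the difference was 0.07 (95% interval -0.68 to 0.81, limma adjusted p = 0.889). Its values ran with the mean of 9 keratinocyte markers, a pattern picked out after the values were seen. The 4 cKO tumours with the highest marker mean (replicates 1, 2, 5 and 9, 10.52 to 10.96) had Id3 at 9.23 to 10.00, and the other 3 (9.81 to 10.05) had Id3 at 7.93 to 8.64. Among WT tumours Id3 and the marker mean gave one identical order: replicates 6, 4 and 9 (marker means of 10.59 to 10.67) had Id3 at 9.28 to 9.46, and replicates 2, 8 and 7 (9.96 to 10.30) had 8.21 to 8.50. In both genotypes each mirrored pair held 1 high and 1 low tumour. The pattern in cKO and the order in WT tumours thus rest on fewer independent values than there are tumours.

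Of the 9 markers, Krt1, Krt10 and Krt15 had the widest ranges and so weighed most in the mean. In cKO tumours these 3 were higher in replicates 1, 2, 5 and 9 than in the others. Itgb4, in contrast, was highest in cKO replicate 3 (11.33) and lowest in cKO replicate 2 (10.82). In WT tumours Krt10 and Krt15 were higher in replicates 4, 6 and 9 than in the others. Krt1 was not: WT replicates 2 and 8 (8.63 and 8.44) lay above WT replicates 4 and 9 (8.15 and 8.04). Trp63 followed the split in both genotypes, whereas Krt14 was highest in WT replicate 2 (12.45). Krt10, a keratin of differentiating layers, read 6.28 to 10.07 in cKO tumours and 7.10 to 9.33 in WT tumours. Krt1, its partner keratin, read 6.34 to 10.61 and 6.44 to 9.14 in the same order. The list as a whole had 1 gene higher and 2 lower in cKO tumours of 9, and its part in the spread of Id3 was not tested.

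**Figure D3:**
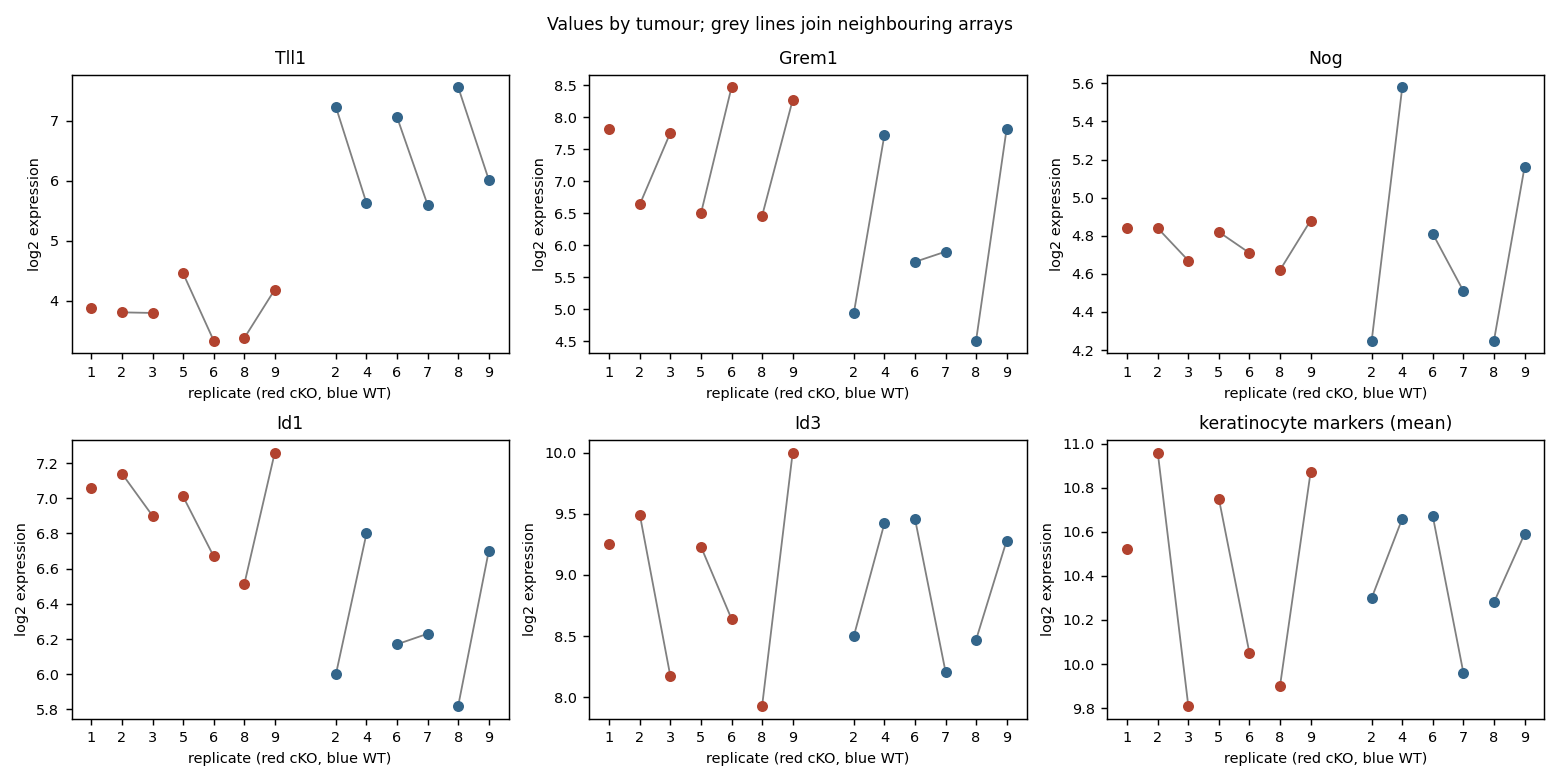
Log2 expression (y axis) of Tll1, Grem1, Nog, Id1 and Id3 and the mean of 9 keratinocyte markers in each tumour (x axis, replicate number), cKO in red on the left and WT in blue on the right; grey lines join neighbouring arrays that mirror each other. WT replicates 4 and 9 are the highest WT tumours for Grem1, Nog and Id1, and Id3 and the keratinocyte marker mean share their high and low tumours.

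Markers of stroma and vessels differed between the genotypes as well. The mean of 10 fibroblast markers was 6.40 to 6.96 in cKO tumours and 5.84 to 6.38 in WT tumours, with 6 of 10 genes higher, 0 lower and a median difference of 0.72. Pdgfra of this list lay below background on every array, and the called genes Lum and Dpt did so on 6 of 6 WT arrays. The mean of 10 endothelial markers was 5.60 to 5.97 in cKO and 4.52 to 5.51 in WT tumours, with 7 of 10 higher and 0 lower. That of 10 macrophage and leukocyte markers was 5.57 to 6.32 and 4.71 to 5.03 in the same order, also with 7 of 10 higher and 0 lower. Ptprc of this list lay below background on every array. Of its called genes, Adgre1 and Itgam did so on 6 of 6 WT arrays and Cd53 on 3 of 6. T cell markers (2 higher and 2 lower of 7) and adipocyte markers (2 higher and 1 lower of 4) were mixed. Most skeletal muscle markers (1 higher and 0 lower of 6) and dermal papilla markers (1 higher and 0 lower of 5) were not called. The called dermal papilla marker was Sostdc1, which is also counted among the antagonist genes below. WT replicate 4 had the highest fibroblast and endothelial means of the WT group (6.38 and 5.51), whereas WT replicate 9 had the lowest endothelial mean (4.52). The part of these cell types in the results for Tll1, Grem1 and Id1 was not tested.

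Of 64 other measured genes of the pathway, in 7 lists, 18 (28.1%) were higher and 11 (17.2%) lower in cKO tumours, where 26.1% and 20.4% of all genes were, each gene read by its brightest probe set. With the pair term 11 (17.2%) were higher and 8 (12.5%) lower, against 15.2% and 11.0% of all genes. Their median difference was 0.03, and that of all genes was 0.0172. The lists as a whole thus stood near the background, and 9 of the 64 genes lay below background on every array.

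Of 9 other ligand genes, 2 were higher and 2 lower (1 and 2 with the pair term), with a median of 0.03. Bmp6, a ligand gene expressed in suprabasal epidermis, rose by 0.81, with means of 5.97 ± 0.31 in cKO and 5.16 ± 0.35 in WT tumours (SD, n = 7 and 6; limma adjusted p = 0.00186, with the pair term 0.0284). Gdf10, also called Bmp3b, fell by 0.62, with means of 4.36 ± 0.07 in cKO and 4.97 ± 0.36 in WT tumours (limma adjusted p = 0.00172, with the pair term 0.0222). Bmp8b was called lower on its brighter probe set (-0.20); the other was called higher (0.19), but its means of 3.90 in cKO and 3.72 in WT tumours lay under the background level. Bmp10 was called at 0.12 while below background on all 13 arrays, and lost the call with the pair term (adjusted p = 0.0688).

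Of 14 other antagonist and binding protein genes, 6 were higher and 2 lower, with a median of 0.08; with the pair term 2 were higher and 2 lower. Fst, which encodes follistatin, a binder of activins and some BMPs, fell by 1.07, with means of 9.25 ± 0.39 in cKO and 10.31 ± 0.47 in WT tumours and no overlap (limma adjusted p = 0.00177, with the pair term 0.0272). Its other probe set fell by 1.53 (adjusted p = 0.000644). Chrd, the gene of chordin, rose by 0.19 (adjusted p = 8.08e-05), a size within the differences of controls. Sostdc1 rose by 0.76 on its brighter probe set, with means of 9.36 ± 0.60 in cKO and 8.60 ± 0.29 in WT tumours. Its call (limma adjusted p = 0.0248) was lost with the pair term (adjusted p = 0.105). Bmper and Vwc2 (0.19 and -0.12) were called while below background on every array.

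Of 11 other receptor and co-receptor genes, 2 were higher and 4 lower (2 and 2 with the pair term), with a median of -0.19. Eng, which encodes endoglin, a co-receptor of vessels, rose by 1.12, with means of 6.27 ± 0.20 in cKO and 5.16 ± 0.46 in WT tumours (limma adjusted p = 0.000258, with the pair term 0.01). Acvrl1, the gene of the endothelial type I receptor ALK1, rose by 0.77 (limma adjusted p = 0.000136, with the pair term 0.00597). Their other probe sets differed by 0.12 and 0.05 (adjusted p = 0.239 and 0.436), and both genes are mainly endothelial, and the endothelial means above moved with them; that part was not tested. Bmpr1b, another type I receptor gene, fell by 0.41 and by 0.39 on its 2 probe sets (adjusted p = 0.000272 and 0.00414). The cKO mean of the probe set at 0.39, 4.16, lay under the background level. Acvr2b, a type II receptor gene, fell by 0.26 and by 0.34 on 2 probe sets and differed by 0.00 on another (adjusted p = 0.00375, 0.00542 and 0.998); with the pair term the call at 0.34 was lost (adjusted p = 0.0542) and that at 0.26 was kept narrowly (adjusted p = 0.0469).

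Of 8 Smad genes and their regulators, 1 was higher and 1 lower. Smad4, the common partner Smad, differed by -0.33 and -0.31 on 2 probe sets and by 0.14 on another, each called in the group fit (adjusted p = 0.000321, 0.00587 and 0.0339). With the pair term only the first stayed called (adjusted p = 0.0117, 0.0542 and 0.103). Smad6, an inhibitory Smad induced by BMPs, was higher by 0.28 (adjusted p = 0.0158, lost with the pair term at 0.0924). Of 7 other target genes, 1 was higher and 1 lower: Dlx3, a homeobox gene of differentiating epidermis, by 0.28 (adjusted p = 0.000261), with 0.00 on its other probe set (adjusted p = 0.974), and Dlx5 by -0.60 (adjusted p = 0.0243, with the pair term 0.116). Id2 and Id4, the remaining Id genes, differed by 0.27 and -0.37 (adjusted p = 0.305 and 0.404).

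Of 12 genes of tolloid substrates, 6 were higher and 0 lower, with a median of 0.26, and 5 were higher with the pair term. The procollagen genes Col1a1 and Col3a1 rose by 2.93 and 3.22, with means of 9.19 ± 0.52 and 8.89 ± 0.58 in cKO tumours against 6.25 ± 0.82 and 5.67 ± 1.07 in WT tumours (limma adjusted p = 2.87e-05 and 7.49e-05). The other Col3a1 probe set differed by 0.28 (limma adjusted p = 0.0163, with the pair term 0.0824). Its means of 3.69 in cKO and 3.41 in WT tumours lay under the background level. Loxl1 and Lox, whose products crosslink collagen and elastin, rose by 0.86 and 0.21 (limma adjusted p = 1.75e-05 and 0.000185). Lama3, an epithelial laminin chain gene, differed by -0.19 and Col7a1, the gene of anchoring fibril collagen, by -0.10 (adjusted p = 0.126 and 0.616). The other uncalled substrates were Col5a2 (0.51), Bgn (-0.13) and Col2a1 (0.31), with limma adjusted p of 0.36, 0.775 and 0.0502, and Col1a2, below background on every array. The other 2 called genes were Col5a1 (1.17, adjusted p = 0.00128), another procollagen gene, and Ogn (0.13, adjusted p = 0.03, with the pair term 0.149), which encodes a matrix proteoglycan and lay below background on 6 of 7 cKO and 6 of 6 WT arrays. Most of the called substrates are genes of stroma, whose marker means above were also higher in cKO tumours; the part of stromal makeup was not tested. Of the remaining tolloid gene, Tll2, and the enhancer genes, Tll2 was called at -0.21 while below background on every array, and Pcolce and Pcolce2 differed by 0.18 and 0.59 (adjusted p = 0.393 and 0.145).

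**Figure D4:**
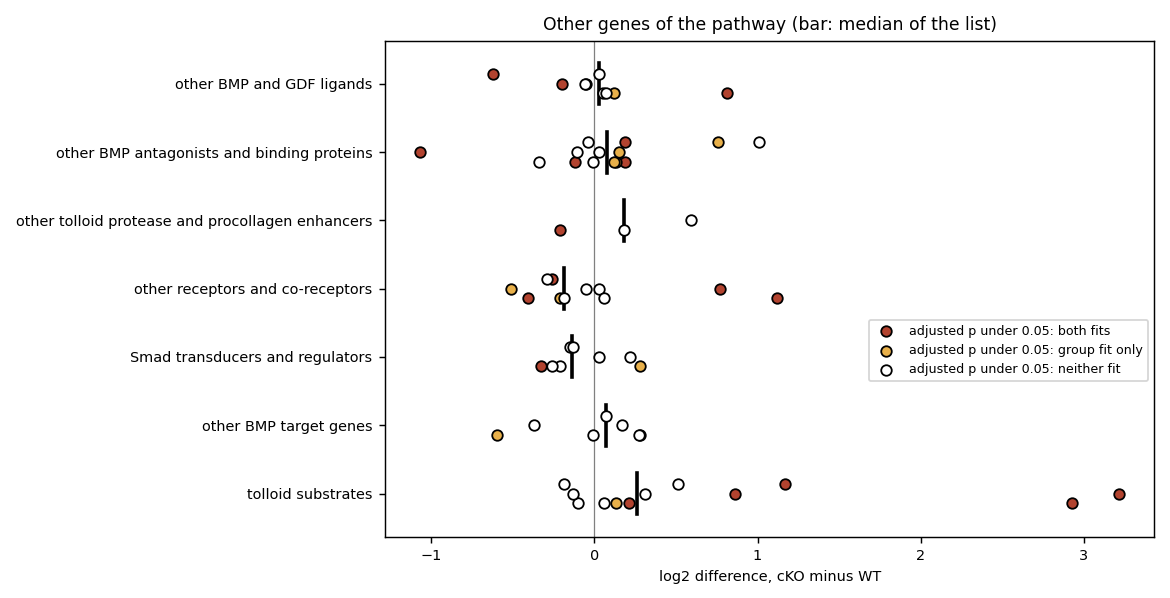
Log2 difference, cKO minus WT (x axis), of each other measured pathway gene (points) in 7 lists (rows), coloured by whether adjusted p was under 0.05 in both fits, in the group fit only or in neither; black bars are list medians. Medians lie between -0.19 and 0.26, and the points farthest to the right are Col3a1 (3.22) and Col1a1 (2.93).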

How the data were processed

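Expression was measured on 13 arrays of 25 ng of total RNA each, amplified with 17 cycles, per the labels. The authors deposited log2 values, 1 per probe set and array, made with RMA per the submitters' processing notes; the sources used here name no version and no later adjustment. Of 45141 probe sets, 104 array controls were left out of tests. Of the others, 28898 have 1 gene symbol, 551 several and 15588 none in the platform annotation; 28689 were found by gene number in GRCm38.p6, which changed 0 symbols. The difference cKO minus WT was taken from a linear model in limma 3.58.1 (R 4.3.3; lmFit with eBayes, no covariate, two-sided, Benjamini-Hochberg over 45037 probe sets, threshold 0.05). No filter was set on dim probe sets, and the number of arrays limits the precision. Named genes were all members, Ehmt2, up to 4 called genes of smallest p per pathway list, and the 3 profiles nearest to Tll1. Id2, Id4, Sostdc1, Pcolce, Pcolce2, the other tolloid substrates and the cell markers named were picked after their values were seen. The members and lists were chosen with earlier results of these data known. Figures were drawn with matplotlib 3.10.9. Alternatives were median centring, quantile normalization, a filter at the 25th percentile, 1 probe set or the mean of probe sets per gene, a threshold of 0.01, a block for the replicate number, the neighbouring-pair term (also after quantile normalization), weights per array, a trended robust prior and each array left out.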

Additional observations from a re-analysis of the deposited data

How the results depend on the processing

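Tll1 stayed lower and past the threshold in all 23 alternatives (log2 difference -3.29 to -2.47, adjusted p 2.46e-06 to 0.0159), and Id1 stayed higher in all 23 (0.56 to 0.77), losing its call with the neighbouring-pair term alone. The number of member probe sets called higher, 1, became 0 with the neighbouring-pair term, 2 with array weights (which did not converge) and 2 with the replicate block, where Grem1 passed (1.71 in both). The number called lower, 2, became 1 after quantile normalization, with 1 probe set or the mean of probe sets per gene, with the replicate block, with the pair term, with the pair term after quantile normalization, and at an adjusted p under 0.01; it became 3 with array weights, where Bmp1 probe set 3 passed. Leaving out single arrays gave 1 to 3 higher and 1 to 3 lower. Over all probe sets, 21565 calls became 12169 with the pair term, 11295 with it after quantile normalization, 8955 with the replicate block, and, adjusted over genes, 7830 with 1 probe set per gene and 7884 with their mean; array weights gave 26500.

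Signs turned for values near 0, none of them called. Nog was -0.00555 after median centring, -0.00639 after quantile normalization with or without the pair term, and -0.0934 to 0.17 when single arrays were left out. Bmp7 probe set 3 was 0.0459 after quantile normalization with or without the pair term and 8.5e-05 with array weights. Bmp1 probe set 2 was 0.0915 in those normalized fits and -0.17 to 0.018 without single arrays, and Id3 was -0.11 to 0.24 without single arrays. The causes were not tested. Replicate numbers 2, 6, 8 and 9 occur in both genotypes, and the labels do not say what the numbers mean. Deviations of like-numbered arrays correlated at 0.0536, -0.283, -0.128 and -0.0563. Each array's deviations are largely tied to those of its mirrored neighbour, so these correlations cannot show whether the numbers pair the tumours. The replicate block gave a Bmp1 probe set 1 difference of -0.67 (limma adjusted p = 0.106). Each of 32 sets of arrays (14 member and 2 Ehmt2 probe sets in each genotype) was searched for a value standing apart from its group, and 0 were found. In mirrored pairs a value far from the group mean has a partner about as far on the other side. The search could therefore hardly find such a value, and nothing is concluded from it. Signal near background limits Bmpr1a, Nog and Tll1 in cKO tumours.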
